A study of Saccharomyces cerevisiae with 3 samples.

Results

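The genes described here encode proteins of the mitochondrial ribosome of the budding yeast Saccharomyces cerevisiae. They were taken as every array feature whose gene symbol is MRPL, MRPS or MRP followed only by digits, with MRP8 left out because its product is not a ribosomal protein. This gave 53 of the 5792 gene features, 37 for the large subunit and 16 for the small subunit by the annotation in the array files. Within the same annotation, all 53 carry the term for a structural constituent of the ribosome.

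The RNA came from BY4742, a haploid alpha-mating laboratory strain with deletions of HIS3, LEU2, LYS2 and URA3, which every group shares. Cells were tagged with biotin, grown in rich YPD medium, and recovered at the 4th, 7th or 11th generation with beads that bind biotin; the submitters call these early stages of senescence. The labels name no other treatment. On each of 3 arrays, Cy3-labelled RNA of 1 of these generations was hybridised together with Cy5-labelled 1st generation RNA. How the 1st generation cells were isolated, and whether 1 preparation of their RNA served every array, is not given in the sources used here. Each generation was measured on 1 array with no dye swap, so no value of an older generation has an error, no test was made, and generation and a probe's dye bias cannot be told apart in ratios to the 1st generation. The 1st generation was measured on all 3 arrays, and its spread may be technical.

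Mitochondria carry their own ribosome, which translates the few proteins encoded by mitochondrial DNA, most of them subunits of the respiratory chain and the ATP synthase. Its RNAs are encoded in the mitochondrion, and nearly all of its proteins are encoded in the nucleus, made in the cytosol and imported. Many of these proteins descend from those of a bacterial ribosome, and others have no bacterial counterpart and were added in the mitochondrial lineage. In yeast their genes are expressed together and follow the carbon source, and the RNA-binding protein Puf3 binds many of their messages.

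Ratios are log2 of Cy3 over Cy5 after background correction and loess normalisation within each array, so that 0 means equal signal and 1 means a signal 2-fold higher in the older cells. A gene was counted as higher or lower when it differed at least 2-fold. All 53 features were above the blank spots in both channels on every array, and none was saturated. The members' raw signals had medians of 294, 291 and 270 in Cy5 and of 945, 1070 and 1390 in Cy3, in order of generation. The medians of all features were 177, 161 and 162 in Cy5 and 523, 496 and 591 in Cy3. Markers of mating type went with the label, with raw Cy5 signals of 1180 to 1330 for STE3, the a-factor receptor, and of 30.1 to 47.4 for STE2, the alpha-factor receptor. Of the deleted genes, LEU2 was not above the blank spots in any channel. LYS2 was above them in Cy5 on 3 arrays and in Cy3 on 0, and URA3 in Cy5 on 3 and in Cy3 on 2, with raw Cy5 signals of 30.6 to 38.2 and 34.4 to 41.6 against blank limits of 26.4 to 32.2. HIS3 had raw Cy5 signals of 356 to 435, and the position of its probe relative to the deletion is not known. Since these are bulk samples, fewer cells with a transcript and less transcript per cell cannot be told apart.

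At the 11th generation most genes of the mitochondrial ribosome had more signal in the older cells than in the 1st generation. Their median log2 ratio was 0.43, against 0.026 over all features, and 41 of 53 were above 0, which is 77.4% against 52.0% of all features. The middle part of the distribution, from the lower to the upper quartile, ran from 0.0092 to 0.76. At the 4th and 7th generation the members' medians were 0.11 and 0.075, against 0.02 and 0.016 over all features. Most members were above 0 at the 11th generation, and most of those by less than 2-fold.

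**Figure D1:**
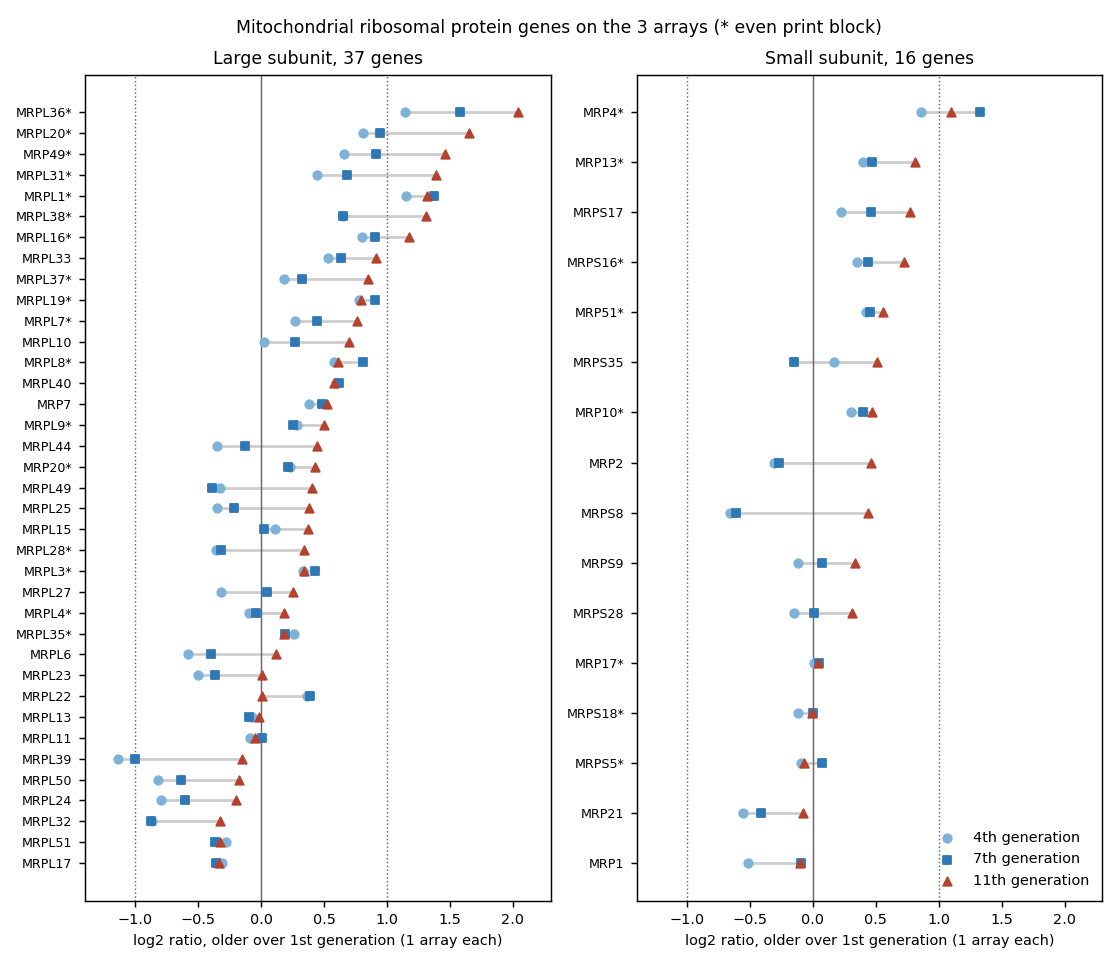
Log2 ratio of each of the 53 mitochondrial ribosomal protein genes (rows, by subunit, with an asterisk for even print blocks) against the 1st generation at the 4th, 7th and 11th generation (1 array each, no error bars). The points of the 11th generation lie furthest to the right for most genes and span -0.34 to 2.04.

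Few single members passed 2-fold against the 1st generation. At the 4th generation 2 of 53 were higher, MRPL1 and MRPL36, beside 4.19% of all features, and 1 was lower, MRPL39, beside 3.64%. At the 7th generation 3 were higher (MRPL36, MRPL1 and MRP4) and 0 lower, beside 4.56% and 3.56% of all features. At the 11th generation 8 were higher, beside 7.35% of all features, and 0 were lower, beside 5.51%. The count of members past 2-fold at the 4th and 7th generation was thus close to the background of the array. At the 11th generation the higher count lay above it, at 8 of 53 genes, and no member was past 2-fold in the other direction.

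All 8 members past 2-fold at the 11th generation lay in even-numbered print blocks of the array, which bears on how their ratios are read. The array was printed in 16 blocks, and features in even blocks had higher ratios than features in odd blocks. Of the members, 25 lay in even and 28 in odd blocks. At the 11th generation the median of the members was 0.72 in even blocks and 0.28 in odd blocks, beside 0.25 and -0.21 for all features of those blocks. The members' median thus lay above that of all features in both kinds of block. In even blocks 8 of 25 members were past 2-fold higher, as were 310 of 2848 features. At the 4th generation the medians were 0.35 in even and -0.31 in odd blocks, beside 0.25 and -0.22 for all features. At the 7th generation they were 0.44 and -0.14, beside 0.27 and -0.23.

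**Figure D2:**
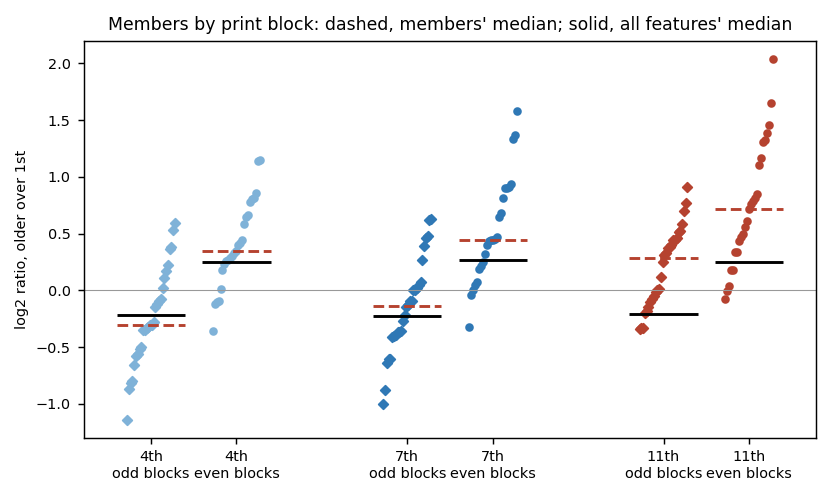
Log2 ratio of the members against the 1st generation on each array, split by odd and even print blocks (points are genes, dashed lines the members' medians, solid lines those of all features). The members' median is higher in even blocks at every generation, and at the 11th generation the members' medians of 0.72 and 0.28 both lie above those of all features, 0.25 and -0.21.

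With loess normalisation fitted within each print block, which removes such an offset, the median at the 11th generation was 0.44. Under this normalisation 5 members were at least 2-fold higher, beside 5.75% of all features, and none was lower, beside 3.84%. The 5 were MRPL36, MRPL20, MRP49, MRPL31 and MRPS17. At the 7th generation 2 were higher, beside 2.32%, and at the 4th none was higher or lower, beside 2.17% and 2.49%. The medians at those generations were 0.089 and 0.0085, so the 4th generation shift of 0.11 was close to 0 within blocks.

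Among the members of the large subunit, MRPL36, the counterpart of bacterial L31, had the highest ratio at the 7th and 11th generation. Its raw Cy5 signals, those of the 1st generation, were 102, 198 and 179 in order of generation, the order kept below, and its raw Cy3 signals were 724, 1836 and 2591. The log2 ratios were 1.14, 1.58 and 2.04, the last a difference of 4.1-fold. The Cy3 signal was lowest on the 4th generation array and highest on that of the 11th, and the normalised Cy5 signal spanned 1.93-fold over the arrays. Within blocks the ratios were 0.83, 1.16 and 1.62.

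MRPL20, MRP49 and MRPL31 are large subunit proteins with no bacterial counterpart. MRPL20 had raw Cy5 signals of 363, 315 and 290 and raw Cy3 signals of 1762, 1748 and 2915, and log2 ratios of 0.81, 0.94 and 1.65. MRP49 had Cy5 signals of 178, 192 and 184 and Cy3 signals of 837, 1125 and 1795, with log2 ratios of 0.66, 0.91 and 1.46. MRPL31 had Cy5 signals of 424, 409 and 368 and Cy3 signals of 1568, 1818 and 2978, with log2 ratios of 0.44, 0.68 and 1.39. In each of these genes the Cy3 signal was highest on the 11th generation array, while the Cy5 signal varied less between arrays than the Cy3 signal. Within blocks their 11th generation ratios were 1.28, 1.19 and 1.05.

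The remaining genes past 2-fold at the 11th generation have bacterial counterparts. MRPL1, the counterpart of bacterial L1, had raw Cy5 signals of 125, 123 and 137 and Cy3 signals of 871, 1070 and 1281. Its log2 ratios of 1.15, 1.37 and 1.32 were past 2-fold at every generation and differed little between them. MRP4, the counterpart of S2 of the small subunit, had Cy5 signals of 192, 251 and 218 and Cy3 signals of 1032, 1880 and 1624, with log2 ratios of 0.86, 1.33 and 1.10. The ratios of MRPL1 and MRP4 were thus not highest at the 11th generation but at the 7th. Their differences from the 7th to the 11th were -0.048 and -0.23. The SDs of their log2 1st generation signal over the arrays were 0.118 and 0.234. With 1 array per generation this order is not settled.

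MRPL38 and MRPL16, counterparts of L14 and L16, complete this group. MRPL38 had raw Cy5 signals of 294, 291 and 270, Cy3 signals of 1313, 1347 and 2223, and log2 ratios of 0.65, 0.65 and 1.31. MRPL16 had Cy5 signals of 375, 347 and 368, Cy3 signals of 1800, 1838 and 2598, and log2 ratios of 0.80, 0.90 and 1.17. Within blocks MRPL38, MRPL16, MRPL1 and MRP4 had 11th generation ratios of 0.92, 0.81, 0.96 and 0.80, below 2-fold. MRPS17, the counterpart of S17, is in an odd block and had 0.77, and 1.0 within its block, just past 2-fold.

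The lowest ratios at the 11th generation were small. MRPL17 and MRPL51, large subunit proteins without a bacterial counterpart, had log2 ratios of -0.34 and -0.33. MRPL32, the counterpart of L32, whose maturation by the m-AAA protease of the inner membrane precedes its assembly into the ribosome, had -0.33. MRPL24 and MRPL50, counterparts of L28 and L9, had -0.20 and -0.18. None of these 5 passed 2-fold, and all 5 lie in odd blocks; within blocks their ratios were -0.097, -0.025, -0.003, 0.15 and 0.012.

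**Figure D3:**
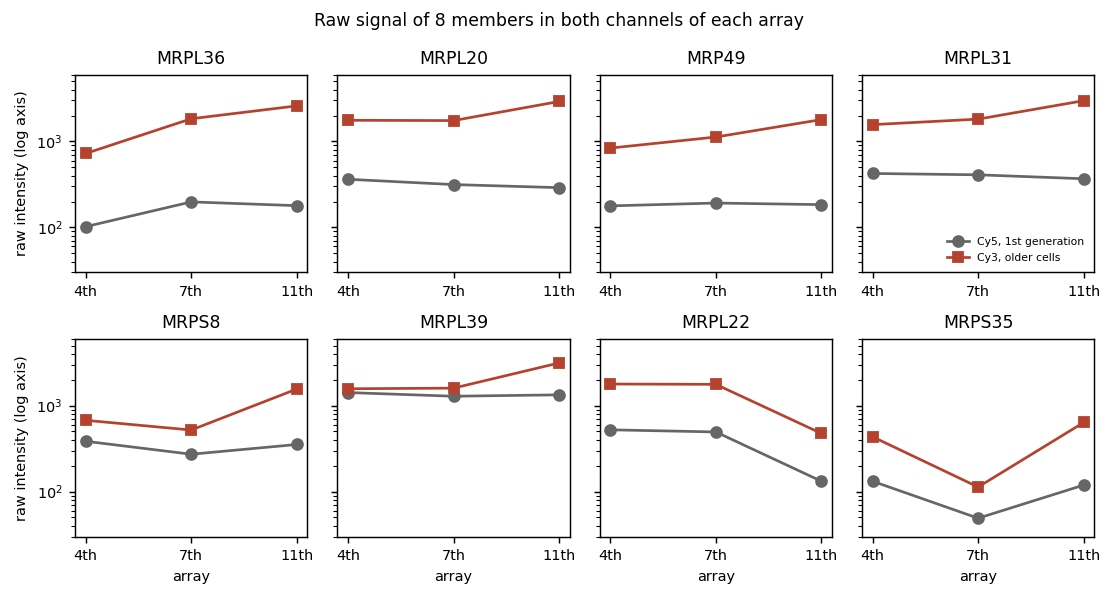
Raw signals on each array without normalisation, Cy5 for the 1st generation and Cy3 for the older cells for 8 members (log axis, scanner units, 1 array per generation). For MRPL20, MRP49, MRPL31 and MRPS8 the Cy3 signal of the 11th generation lies above that of the 4th, with the Cy5 signals closer together; for MRPL22 both channels are low on the 11th generation array.

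Later and earlier generations were then compared by subtracting their log2 ratios, in which a dye effect or print block offset that is the same on both arrays cancels. The differences share the 1st generation reference, so they are not independent of each other. Between the 4th and the 11th generation the members moved up by a median of 0.41, against 0.006 over all features. Of the 53, 48 had a higher ratio at the 11th generation, 90.6% against 50.6% of all features. Only MRPS8 passed 2-fold, and none was lower by 2-fold, beside 2.66% and 0.886% of all features. The count of genes past 2-fold thus lay near the background, while the median and the share above 0 lay above theirs.

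From the 7th to the 11th generation the median difference was 0.29, against -0.0016, and 40 of 53 genes were above 0, 75.5% against 49.7%. Here again 1 member, MRPS8, was past 2-fold higher and none lower, beside 1.85% and 0.612% of all features. From the 4th to the 7th generation the median was 0.10, against -0.0026, and 42 of 53 were above 0, 79.2% against 48.9%. No member passed 2-fold in either direction, beside 0.162% and 0.108%. The SD over genes of that difference was 0.14 for the members and 0.178 over all features, which holds real differences and array noise together. For scale, the members' median log2 1st generation signal relative to all features had an SD of 0.0621 over the 3 arrays. That SD is of the Cy5 signal alone and is not an error of the difference. With loess within blocks the medians of the 7th minus 4th, 11th minus 4th and 11th minus 7th generation were 0.12, 0.35 and 0.27. The members past 2-fold higher were then 0, 1 and 1 of 53, beside 0.162%, 2.66% and 1.93% of all features, and those lower were 0 in each, beside 0.0901%, 0.903% and 0.558%.

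**Figure D4:**
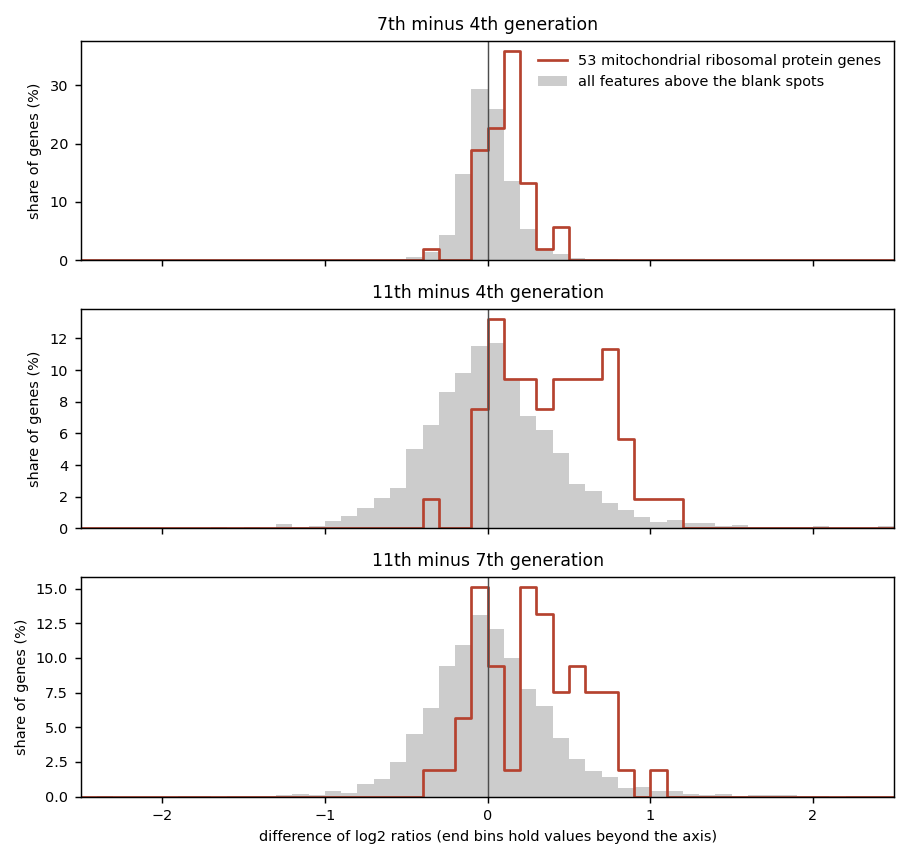
Share of genes (percent, vertical axis) by difference between generations (log2, horizontal axis) for the 53 members and for all features above the blank spots. The members' distribution is shifted to the right in each comparison, with medians of 0.10, 0.41 and 0.29 for 7th minus 4th, 11th minus 4th and 11th minus 7th.

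The channels were also set apart, with the intensity distributions of the arrays made equal. From the 4th to the 11th generation array the Cy3 signal of the members changed by a median of 0.46 on the log2 scale and was higher for 45 of 53 genes. The Cy5 signal, of the 1st generation on both arrays, changed by a median of -0.0098 and was higher for 25 of 53. Over all features the medians were -0.028 in Cy3 and -0.035 in Cy5. The share with a higher signal was 84.9% of members against 47.1% of all features in Cy3. In Cy5 it was 47.2% against 40.9%. The difference in ratio was therefore carried by the channel of the older cells.

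MRPS8, the counterpart of S8 of the small subunit, had raw Cy5 signals of 385, 272 and 353 and Cy3 signals of 675, 520 and 1559. Its log2 ratios of -0.66, -0.61 and 0.44 differed by 1.11 between the 4th and 11th generation, or 2.15-fold. MRPL39, the counterpart of L33, had Cy5 signals of 1419, 1286 and 1335, Cy3 signals of 1571, 1597 and 3135, and log2 ratios of -1.14, -1.0 and -0.15. In both genes the 11th generation Cy3 signal stood clear of the other Cy3 signals, while the Cy5 signals lay closer together. MRPL39 was 2.21-fold lower at the 4th generation than in the 1st, and its difference of 1.0 to the 11th lay just under 2-fold. It lies in an odd block, and within blocks its ratios at the 4th and 7th generation were -0.89 and -0.68, below 2-fold.

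Of the other large differences between the 4th and 11th generation, MRPL31 had 0.95, MRPL36 0.89, MRPL20 0.83 and MRP49 0.80. MRP2, the counterpart of S14, had 0.78, as did MRPL44, which has no bacterial counterpart. From the 7th to the 11th generation MRPL39 had 0.85, MRPL49, the counterpart of L21, had 0.79, MRP2 0.73 and MRPL31 0.71. Between the 4th and 7th generation the highest were MRP4 at 0.47, and MRPL36 and MRP1 at 0.43 each. These are members of both subunits and with and without bacterial counterparts.

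The 5 members whose ratio was lower at the 11th than at the 4th generation were MRPL22, the counterpart of L22 that lines the exit tunnel, at -0.35, and MRPL35, MRPL51, MRPL17 and MRPL40 at -0.079, -0.051, -0.028 and -0.016. From the 7th to the 11th generation the lowest were MRPL22 at -0.39, MRP4 at -0.23, MRPL8 at -0.20, MRPS5 at -0.15 and MRPL19, the counterpart of L11, at -0.11. From the 4th to the 7th the lowest was MRPS35 at -0.31.

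MRPL22 needs care, since its signal was low in both channels on the 11th generation array. Its raw Cy5 signals were 523, 494 and 132 and its Cy3 signals 1783, 1768 and 475. The normalised 1st generation signal thus spanned 3.32-fold, although its label is the same on every array. MRPL13, in the same print block, had Cy5 signals of 238, 250 and 104 and Cy3 signals of 646, 700 and 372, a 2.21-fold spread. MRPL50, the third member of that block, had no such drop, with Cy5 signals of 131, 123 and 120 and Cy3 signals of 192, 221 and 373. MRPS35 had Cy5 signals of 132, 49.0 and 119 and Cy3 signals of 434, 113 and 637, a 2.27-fold spread with the 7th generation array low. These 3 members, 5.66% of 53, differed at least 2-fold, against 2.7% of all features. Without them the members' median was 0.065 in place of 0.11 at the 4th against the 1st generation, 0.13 in place of 0.075 at the 7th, 0.43 at the 11th, 0.43 for the 11th minus 4th and 0.29 for the 11th minus 7th. Over all members the SD of the log2 1st generation signal had a median of 0.0847, against 0.0797 over all features, and ran from 0.011 to 0.983.

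The subunits and origins were compared as counts and medians. At the 11th against the 1st generation the large subunit genes had a median of 0.40 with 7 of 37 past 2-fold higher, and the small subunit genes 0.45 with 1 of 16, beside 7.35% of all features. Genes with a bacterial counterpart had a median of 0.44 with 5 of 35 past 2-fold, and genes without one 0.38 with 3 of 18. From the 4th to the 11th generation the large subunit median was 0.50 with 32 of 37 above 0, and the small subunit median was 0.39 with all 16 above 0. With loess within blocks the order of the 11th generation medians turned, to 0.45 for the large and 0.40 for the small subunit, and to 0.42 with and 0.49 without a bacterial counterpart. The differences between these groups were not tested.

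Other genes of mitochondrial translation were taken from lists of known function. The 24 mitochondrial ribosomal proteins named otherwise, such as the RSM genes, had a median of 0.67 at the 11th generation, and 6 passed 2-fold higher, beside 7.35% of all features. These were SWS2, counterpart of S13, at 2.87-fold, RSM18 at 2.54-fold, QRI5 at 2.32-fold, PET123 at 2.3-fold, RSM19 at 2.09-fold and RML2 at 2.03-fold, while YML6, counterpart of L4, was lowest at -0.91. With loess within blocks their median was 0.58, and of the 6 only SWS2 and QRI5 stayed past 2-fold, at 1.12 and 1.26. RSM26 went from 0.75 to 1.1 within blocks and also passed 2-fold, beside 5.75% of all features. Within blocks RSM18, PET123, RSM19 and RML2 had 0.76, 0.92, 0.68 and 0.55. From the 4th to the 11th generation the median of the 24 genes was 0.40, with 21 of 24 above 0. RSM19, counterpart of S19, was past 2-fold at 1.32. Under other symbols in the reference table, MRPS12 had log2 ratios of 1.03, 1.17 and 1.53 and MRP35 of -0.89, -0.72 and 0.23, and both carry no symbol in the files.

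The other lists showed smaller medians. The 12 mitochondrial translation factors had a median of 0.11 at the 11th generation. Of them 0 were past 2-fold, beside 7.35% higher and 5.51% lower of all features. TUF1, the elongation factor Tu, was highest at 0.88, and MEF2 was lowest at -0.41. With loess within blocks they had 0.49 and -0.24. MRF1, the release factor, was past 2-fold lower at the 4th generation, at -1.1, beside 3.64% of all features. Within blocks MRF1 had -0.76 there, below 2-fold. The 12 mitochondrial aminoacyl-tRNA synthetases, which charge the mitochondrial tRNAs, had 0.095. The 14 measured translational activators of single mitochondrial messages had 0.19, and none of either list passed 2-fold. In lists this small a count of 0 cannot be told apart from those shares of all features. Within blocks MSF1 of the synthetases had 1.07 and ATP22 of the activators had 1.04. Both were then past 2-fold, beside 5.75% of all features. Of 10 assembly and rRNA modification factors, with a median of -0.063, MAM33 was 2.83-fold higher and MTG2 was lowest at -0.85. Within blocks MAM33 stayed past 2-fold at 1.09, and MTG2 had -0.5. The 11 regulators and mitochondrial transcription genes had a median of 0.029, from HAP5 at -0.36 to SFP1, a regulator of ribosomal protein genes, at 0.70. At the 4th generation SFP1 was past 2-fold higher at 1.14, beside 4.19% of all features. Within blocks SFP1 had 0.88 at the 4th and 0.28 at the 11th generation, both below 2-fold. HAP5 had 0.014 within blocks at the 11th generation.

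The 137 cytosolic ribosomal proteins, which build the ribosome of the main cell body, had a median of -0.16 at the 11th generation, with RPL32 past 2-fold higher at 1.16 and 9 genes past 2-fold lower, beside 7.35% and 5.51% of all features; the lower count is near that background. In the authors' deposited values their median was -1.12 and that of the mitochondrial ribosomal proteins 0.32. At the 4th and 7th generation the deposited values already gave cytosolic medians of -0.79 and -0.94, against 0.071 and 0.14 for the mitochondrial ones. With loess the cytosolic medians there were -0.17 and -0.26, so their size depends on the normalisation on every array. Between the 4th and 11th generation the cytosolic proteins had a median of -0.019 with loess and of -0.3 in the deposited values. The median of the mitochondrial ribosomal proteins thus lay above that of the cytosolic ones in each of these readings, and this difference was not tested.

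**Figure D5:**
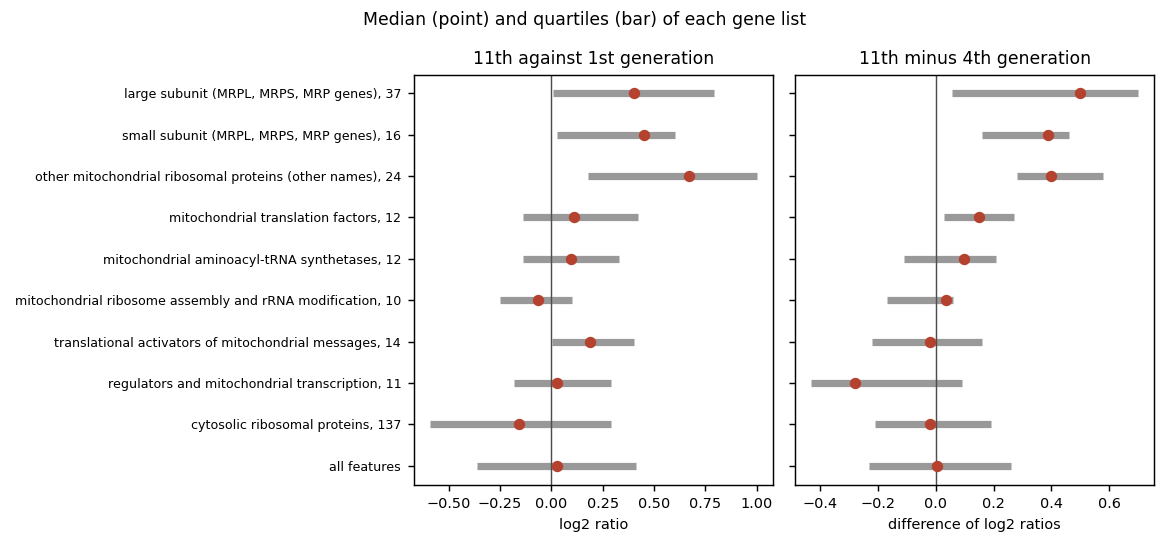
Median log2 (points) and quartiles (bars) of each gene list, with its number of genes above the blank spots, at the 11th against the 1st generation (left) and as the difference of the 11th and 4th (right). At left the large and small subunit members lie at 0.40 and 0.45, the ribosomal proteins with other names at 0.67 and the cytosolic ones at -0.16.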

How the data were processed

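Per the file headers, the array files give raw intensities for Cy5 and Cy3, then background-corrected and globally normalised ones, all made by the authors. Their deposited ratio is Cy3 over Cy5 of the normalised signals. A deposited series table repeats its log2 values, with differences of at most 5e-08. The genome build is not given in the sources used here.

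The raw intensities of 3 arrays, 1 for each older generation, were corrected with normexp (offset 50) and normalised by whole-array loess, controls having weight 0 (R 4.3.3, limma 3.58.1). Python 3.11.15 and pandas 2.3.3 made the summaries. The procedure was tested on simulated data. Features entered with a raw signal over the blank limit (mean of 320 blank spots plus 2 SD) in Cy3 or Cy5, and for a difference on both its arrays. It was counted at 2-fold. For signals of single channels, the mean intensities of the arrays were also made equal by quantiles. Systematic names matched the RefSeq gene table (assembly R64) for 5730 of 5792 features and all 53 members.

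The members and lists were chosen with earlier results of these data known. Named were, in each comparison, the members past 2-fold and the 5 highest and 5 lowest, those with a 1st generation signal at least 2-fold apart between arrays, and the highest and lowest gene of each other list; some are left to the plots. With 1 array per generation no generation could be tested; a pooled test over the 3 arrays was not run. Alternatives were loess within print blocks, centring on the median in place of loess, plain background subtraction or none, the authors' ratio, and signal above blank in both channels. Promoter and message motifs were not searched here.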

Additional observations from a re-analysis of the deposited data

Results flagged for a closer look

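In 5 members the 4th and 11th generation ratios lay on opposite sides of the 1st generation, lower at the 4th and higher at the 11th. This held under both loess settings, by more than the SD of the gene's 1st generation signal over the arrays. The log2 ratios were -0.31 and 0.46 for MRP2, -0.66 and 0.44 for MRPS8, -0.35 and 0.44 for MRPL44, -0.33 and 0.40 for MRPL49, and -0.58 and 0.12 for MRPL6, the counterpart of bacterial L6. With loess within print blocks the pairs were -0.064 and 0.76, -0.36 and 0.74, -0.22 and 0.73, -0.13 and 0.58, and -0.22 and 0.45, in the same order. Each ratio is from 1 array, and the difference between generations was not tested. The share of all features that met the same rule was not counted, so the 5 cannot be read as a trait of the members. The SD is that of the Cy5 signal alone and is not an error of the ratio. Which side of 0 a ratio falls on also depends on the probe's dye bias, which cannot be told apart from generation here. All 5 genes lie in odd print blocks, where the median over all features was -0.22 at the 4th and -0.21 at the 11th generation.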

How the results depend on the processing

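With loess within each print block the 4th generation had 0 members higher and 0 lower with a median of 0.0085, and the 11th had 5 higher. Median centring without loess gave 6 higher, 0 lower and a median of 0.29 at the 4th generation. It gave 8 higher and 0.37 at the 7th, 0.60 at the 11th, and 2 higher for the 11th minus 7th. Over all features its medians were 0.021, 0.028 and 0.017 in order of generation. For median centring, both background alternatives and the authors' ratio, the share of all features past 2-fold was not computed. Member counts under those settings therefore cannot be set against the background of the array. Plain subtraction gave 2 lower at the 4th, 5 higher and 1 lower at the 7th, and 2 higher for the 11th minus 4th and for the 11th minus 7th. Without background correction 1 was lower at the 7th and 2 were higher for the 11th minus 4th. In the authors' deposited ratio 2 were lower at the 4th and 2 at the 7th, and the medians were 0.14 at the 7th, 0.32 at the 11th and 0.34 for the 11th minus 4th. Chosen after seeing the data, even print blocks alone gave medians of 0.35, 0.44 and 0.72 in order of generation and 0.24 for the 11th minus 4th, and odd blocks alone gave -0.31, -0.14, 0.28 and 0.49. The medians at the 4th and 7th generation thus changed sign in odd blocks, while those at the 11th generation and of the 11th minus 4th stayed above 0 under every alternative listed here. Of 315 further values of named members under these alternatives, 228 moved by less than the spread of the 1st generation signal or stayed past 2-fold, 78 moved by more, 9 fell below 2-fold and 0 changed direction past it. The cause of these shifts was not tested. Leaving out a replicate was not possible with 1 array per generation. No paired analysis was possible because each generation has 1 array.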
